A study of Mus musculus with 4 samples.

Results

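EC1 is the endothelial cluster EC1 of a single-nucleus RNA survey of mouse kidney, 1 of the 2 clusters that carry an endothelial name among 17. Its members were taken by name, as the column of deposited averages headed EC1, and all 24468 genes of that column were described against the other 16 columns, with EC2 as the main partner. EC1 had at least 1 UMI (unique molecular identifier, which counts an RNA molecule once) for 15803 of the 24468 genes, and EC2 for 16109. The EC1 column held 616406 UMIs of 36068714 in all 17 clusters, and EC2 held 932023. The 17 columns ranged from 254460 to 7425098 UMIs.

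The nuclei came from cortex with outer medulla of male C57BL/6 mice, in 4 samples. Of these, 2 were untreated (CT9w), and 2 were from mice that received cisplatin, a platinum drug toxic to the proximal tubule, at 8 mg/kg in 4 weekly doses, with kidneys taken 9 weeks after the earliest dose (Cis9w). The cluster averages are named in the descriptions of the replicate-2 samples of both groups, and none of the columns carries a sample or a treatment, so EC1 could not be divided by treatment or by animal. Each value below is 1 pooled average, in normalised UMIs per nucleus, and has no SD, no n and no p-value over samples.

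Endothelial cells line blood vessels and are held in their state by ETS-family and SOX-family transcription factors and by signalling through the VEGF and angiopoietin receptors. In the kidney they form the fenestrated glomerular tuft, the fenestrated peritubular capillaries around the tubules, the arterioles, and the vasa recta that run down into and back up from the medulla. Vessels on the arterial side are known for SOX17, Notch ligands, gap junction proteins and elastic fibre genes, and vessels on the venous side for NR2F2 and EPHB4.

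EC1 matched its name. The 4 markers fixed for it were each at least 6.35-fold above the highest of the 15 non-endothelial clusters. Flt1, a VEGF receptor, averaged 5.04 normalised UMIs per nucleus in EC1, 6.55 in EC2 and 0.406 in the next cluster, Podocyte. Kdr, the main signalling receptor for VEGF-A, averaged 0.984 in EC1, 1.08 in EC2 and at most 0.0868 elsewhere. Emcn, a sialomucin of capillary and venous endothelium, averaged 4.32 in EC1 and 6.67 in EC2, with 0.477 in Podocyte. Pecam1, a junctional adhesion molecule, averaged 1.72 in EC1, 1.94 in EC2 and 0.271 in Immune cells. These marker levels separated EC1 and EC2 from every other cluster, and EC2 was the higher of the pair for all 4.

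Promoters of genes from these comparisons are shown because EC1 shares the endothelial genes with EC2 and a few genes stood apart in EC1 alone. Flt1 and Emcn stand for the shared genes, and Vegfc and Lef1 for those that led in EC1. Each sequence is the 250 bases before an annotated start, from RefSeq on GRCm38.p6, written 5′ to 3′ on the gene's own strand. Capitals mark the letters ACAGGAA, an ETS-type core in a form reported for ERG and related factors, or the same letters read from the opposite strand.
Emcn, chr3:137340828-137341077, plus strand: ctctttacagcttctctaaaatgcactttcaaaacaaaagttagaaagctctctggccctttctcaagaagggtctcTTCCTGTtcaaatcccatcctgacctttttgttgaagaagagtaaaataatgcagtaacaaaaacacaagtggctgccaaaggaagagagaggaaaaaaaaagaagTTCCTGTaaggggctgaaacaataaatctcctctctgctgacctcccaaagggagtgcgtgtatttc
Flt1, chr5:147726012-147726261, minus strand: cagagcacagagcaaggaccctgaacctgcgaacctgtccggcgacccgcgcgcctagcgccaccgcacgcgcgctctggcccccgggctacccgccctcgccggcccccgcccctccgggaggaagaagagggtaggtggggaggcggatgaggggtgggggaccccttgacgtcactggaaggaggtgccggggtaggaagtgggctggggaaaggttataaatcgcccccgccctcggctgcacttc
Vegfc, chr8:54077282-54077531, plus strand: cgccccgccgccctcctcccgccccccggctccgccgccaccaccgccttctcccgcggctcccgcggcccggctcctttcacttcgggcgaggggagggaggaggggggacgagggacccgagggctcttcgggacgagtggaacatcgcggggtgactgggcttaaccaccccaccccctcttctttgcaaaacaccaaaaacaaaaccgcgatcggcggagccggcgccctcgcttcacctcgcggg
Lef1, the most distal of its 4 listed starts, chr3:131156044-131156293, plus strand: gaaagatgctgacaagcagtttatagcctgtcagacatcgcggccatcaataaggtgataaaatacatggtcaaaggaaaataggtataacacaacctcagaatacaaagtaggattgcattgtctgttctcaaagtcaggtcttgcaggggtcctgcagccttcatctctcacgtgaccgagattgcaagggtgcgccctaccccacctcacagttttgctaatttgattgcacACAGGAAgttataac
The Emcn window held the letters 2 times, the Lef1 window shown 1 time, and the Flt1 and Vegfc windows 0 times. The Lef1 window shown lies downstream of the other 3, inside the annotated gene, and is the only 1 of the 4 that held the letters. The other 3 Lef1 windows held them 0 times, as did the Kdr, Gja5 and Fstl4 windows, which are not shown. RefSeq promoters were matched for 182 of the 249 genes that EC1 led over all non-endothelial clusters, as defined in the next paragraph. Of their 243 promoters, 27 (11.1%) held ACAGGAA on either strand. This and the shares below were counted over whole promoter entries, which run past the start, and not only over the 250 bases before it. The share was 8.67% of 32851 promoters in the table and 7.20% of 6877 promoters of genes at the expression floor in EC1. CCGGAAG, an ETS core common in housekeeping promoters, was in 4.94% of the led genes' promoters, 8.86% of all and 15.8% at the floor. AGATAA, which resembles the core read by factors of the GATA family, was in 8.64%, 11.2% and 6.17%. These are counts of letters in short windows and not of bound sites.

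A gene was called where its average on the log2(average + 0.01) scale was at least 2-fold apart, and where the higher of the columns compared reached a floor of 0.05 normalised UMIs per nucleus, which is 15.3 UMIs in EC1 and 23.2 in EC2. Against the 15 non-endothelial clusters the floor was set on EC1 alone. By this rule 249 of 6536 genes (3.81%) were at least 2-fold higher in EC1 than in each of the 15. With 0.01 added to both averages, the gene furthest above them was D5Ertd615e, a long noncoding RNA, at 2.08 in EC1 and 0.140 in Podocyte, the next cluster. Adgrl4, an adhesion G protein-coupled receptor of endothelium, averaged 4.95 against 0.449. Tek and Tie1, the angiopoietin receptor and its partner, averaged 2.20 against 0.200 and 0.345 against 0.0268. Erg, an ETS factor that maintains endothelial identity, averaged 0.743 against 0.0626. Cdh5, the cadherin of endothelial junctions, averaged 0.355 against 0.0312, and Ptprb, a phosphatase that restrains Tek, averaged 2.82 against 0.265. Egfl7, a secreted angiogenic factor, averaged 0.961 against 0.106. The leading 20 also held Exoc3l2, Lrrc3b, Rgcc, Cyyr1, Shank3, Crispld1, Nova2, Arhgef15 and Myrip, at 9.93 to 15.7 times the next non-endothelial cluster.

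EC2 had these genes too. Across 10684 genes the log2 averages of EC1 correlated with those of EC2 at r = 0.949, with Podocyte at 0.792, with Mixed-1 at 0.791, and with the least similar cluster, PT-S3-2, at 0.613. The correlation is across genes, which are not independent replicates, and the clusters share libraries, so it carries no p-value.

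Among the 25 genes of the endothelial identity list 23 reached the floor, and 18 of them were at least 2-fold above all 15 non-endothelial clusters in EC1. None of the 23 was called higher or lower in EC1 than in EC2, yet all 23 were on the lower side in EC1, with a median log2 ratio of -0.32 against 0.02 over all 6972 genes at the floor. Their summed level was 32.9 in EC1 and 43.6 in EC2. The counting intervals of single members were narrow, and the ratio of EC1 to EC2 was 0.647 for Emcn (95% Clopper-Pearson interval 0.606 to 0.690), 0.680 for Adgrl4 (0.640 to 0.723), 0.768 for Flt1 (0.722 to 0.817) and 0.908 for Kdr (0.784 to 1.05). All intervals here cover the counting of UMIs and not the variation between nuclei or animals.

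**Figure D1:**
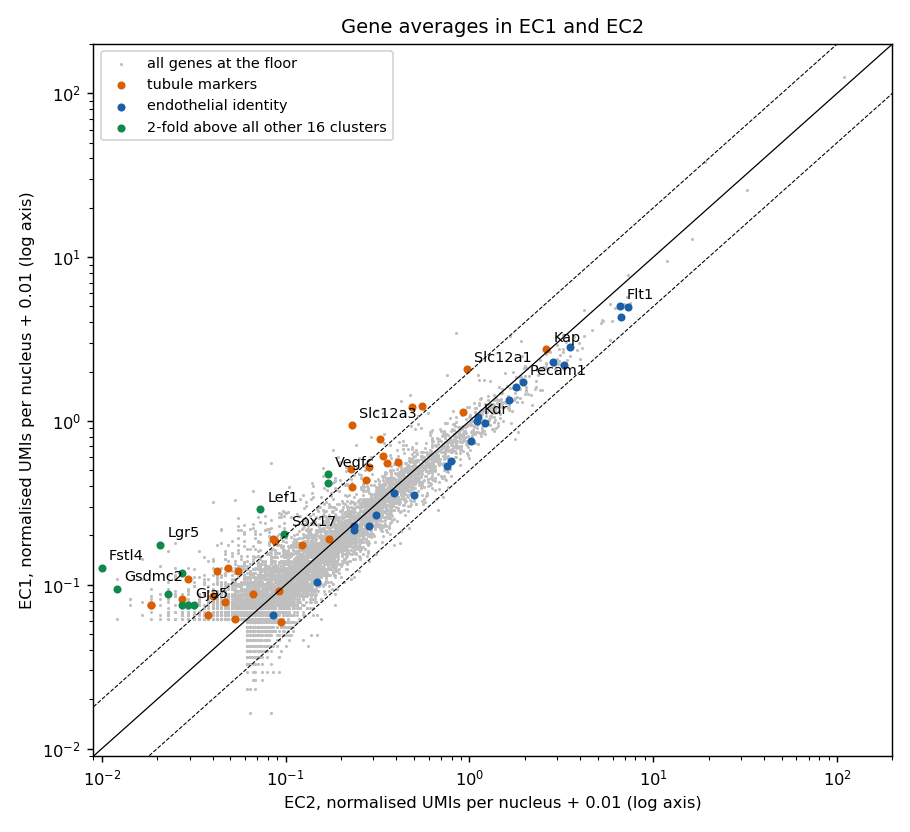
Each point is 1 gene at the floor, with its average in EC2 on the x axis and in EC1 on the y axis (normalised UMIs per nucleus, 0.01 added, both log axes). The solid line marks equal averages and the dashed lines 2-fold. Endothelial identity genes (blue) lie on or just under the line of equality, whereas tubule markers (orange) lie mostly above it and the 12 genes that EC1 led over all other clusters (green) lie above the upper dashed line.

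Against EC2, 413 of 6972 genes (5.92%) were called higher in EC1 and 64 (0.918%) were called lower. The counting interval of the ratio lay clear of 1 for all 413 and all 64, and clear of 2-fold for 122 and 2 of them. The calls were made on the same ratios above a floor of UMIs, so intervals clear of 1 follow largely from the rule and are no separate support. The higher calls had a median of 33 UMIs in EC1, and the ratio of most single genes has a wide interval. Centring the ratios on the median of the endothelial identity list, which moved the median of all genes by 0.32 on the log2 scale, gave 834 higher and 21 lower, or 97.5% of calls higher in place of 86.6%. Nearest the threshold, Col4a4 was just inside, with averages of 0.459 in EC1 and 0.224 in EC2, and Gm42418 just outside, with 38.2 and 19.1.

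A set of 12 genes was at least 2-fold higher in EC1 than in each of the other 16 clusters, or 0.184% of the 6536 genes at the floor in EC1. Vegfc, the ligand of the VEGF receptor FLT4, averaged 0.466 in EC1 from 143 UMIs. It averaged 0.159 in EC2 from 74 UMIs and at most 0.0608 elsewhere, and the ratio of EC1 to EC2 was 2.92 (2.19 to 3.92). Sox17, a transcription factor required for arterial identity, averaged 0.195 in EC1, 0.0883 in EC2 and at most 0.0166 elsewhere, a ratio of 2.21 (1.46 to 3.38) from 60 and 41 UMIs. Gja5, the gap junction protein connexin 40 of arterial endothelium, averaged 0.0652, 0.0194 and at most 0.00789, a ratio of 3.36 (1.46 to 8.38) from 20 and 9 UMIs. Adipor2, an adiponectin receptor, averaged 0.407 in EC1 and 0.159 in EC2, and reached 0.141 in CNT, so it was not restricted to endothelium.

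Lgr5, a receptor for R-spondins that raises the response to WNT, averaged 0.166 in EC1 from 51 UMIs, 0.0108 in EC2 from 5 UMIs and at most 0.0125 elsewhere. Its EC1 to EC2 ratio was 15.4 (6.19 to 49.5). Fstl4, a follistatin-like secreted protein, averaged 0.117 in EC1 from 36 UMIs and had 0 UMIs in EC2. That is at least 18.1-fold higher if EC2 is taken to hold at most 3 UMIs over the cluster. The counting interval, computed from the 0 UMIs themselves, reached lower, to a ratio of 14.01. Gsdmc2, a gasdermin, averaged 0.0847 from 26 UMIs against 0.00215 from 1 UMI, a ratio of 39.3 with an interval of 6.46 to 1612. These 3 genes were near 0 in all other clusters, where the highest averages were 0.0179 for Fstl4 and 0.0268 for Gsdmc2, both in Mixed-1.

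The other 5 genes fell outside the rule for named genes and are named after their values were seen. Lef1, a transcription factor that acts with beta-catenin downstream of WNT, averaged 0.280 in EC1 (86 UMIs), 0.0625 in EC2 (29 UMIs) and 0.133 in Immune cells. Ptprr, a receptor-type tyrosine phosphatase, averaged 0.108 and 0.0172. Arf2, a small GTPase of vesicle traffic, averaged 0.0652 and 0.0215. Mannr and Gm33206 are long noncoding RNAs that overlap on opposite strands of chromosome 3 (29891014 to 29924191 and 29773466 to 29893177, GRCm38), beside Mecom, and averaged 0.0782 and 0.0652 in EC1 against 0.0129 and 0.0172 in EC2. The sources used here do not say whether counting used strand, so reads of that overlap cannot be assigned to 1 of the pair with certainty.

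On mm10 the annotated genes are at chr8:54077606-54187096 for Vegfc, chr1:4490931-4497354 for Sox17, chr3:96904693-97077416 for Gja5, chr10:115450311-115587780 for Lgr5, chr11:52764634-53188538 for Fstl4, chr15:63824346-63845177 for Gsdmc2 and chr3:131110471-131224356 for Lef1. The counts are of UMIs over whole genes, with no exon or intron position.

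**Figure D2:**
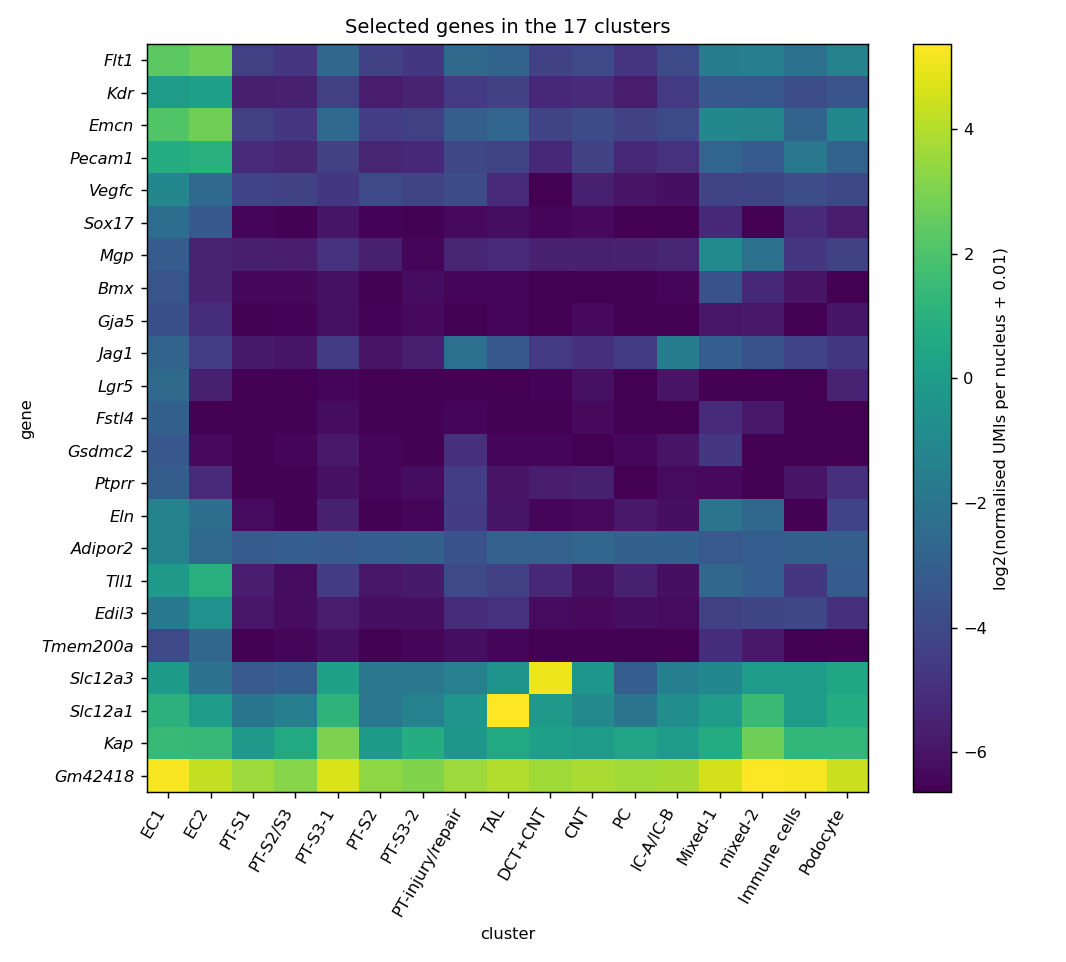
Rows are 23 selected genes and columns the 17 clusters; colour is log2(normalised UMIs per nucleus + 0.01), 1 pooled average per square. The 4 endothelial markers are brightest in EC1 and EC2, Vegfc and Sox17 are brightest in EC1, Tll1 and Edil3 are brighter in EC2, and Slc12a3 and Slc12a1 peak in DCT+CNT and TAL.

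The vessel-type lists differed in direction between EC1 and EC2. Of 26 members of the descending vasa recta and arteriole list at the floor, 11 were called higher in EC1, 0 lower, and the median log2 ratio was 0.80, against 0.02 over all genes, of which 5.92% were called higher. This was the highest median among the 23 pathway lists with at least 3 genes at the floor. The lists were chosen with earlier results of these data known, and this list holds Vegfc, Sox17, Gja5 and Adipor2, described above. Its rank is therefore no separate support. EC1 was the highest of all 17 clusters for 6 of the 11, namely Vegfc, Sox17, Gja5, Adipor2, Bmx and Eln. Bmx, a kinase of arterial endothelium, averaged 0.0782 in EC1 and 0.0129 in EC2 (24 and 6 UMIs), with 0.0715 in Mixed-1. Eln, elastin, averaged 0.401 and 0.192, a ratio that just reached the fold, with 0.239 in Mixed-1.

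For the other 5 of the 11 a non-endothelial cluster was higher still. Mgp, an inhibitor of calcification, had the largest log2 ratio of the list, 2.32, and averaged 0.104 in EC1 (32 UMIs) and 0.0129 in EC2 (6 UMIs), but 0.508 in Mixed-1. Jag1, a Notch ligand, averaged 0.134 and 0.0366, with 0.317 in IC-A/IC-B. Scin, an actin-severing protein, averaged 0.137 and 0.0582, with 0.752 in PT-injury/repair. Fbln5, an elastic fibre protein, averaged 0.124 and 0.0539, with 2.19 in Mixed-1. Cxcl12, a chemokine, averaged 0.0554 and 0.0215, with 0.566 in Mixed-1.

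Not every arterial-side gene was called higher in EC1. Aqp1, the water channel of descending vasa recta and proximal tubule, averaged 0.143 in EC1 and 0.0689 in EC2, a log2 ratio of 0.96 that was not called. Efnb2, an arterial ephrin, averaged 0.583 and 0.461, and Kitl, stem cell factor, averaged 0.873 and 0.618. Dll4, the Notch ligand of arterial and tip cells, lay on the other side at 0.0489 and 0.0754, as did Jag2 at 0.0423 and 0.0689 and Hecw2, a ubiquitin ligase, at 0.893 and 1.38. Slc14a1, the urea transporter of descending vasa recta, was below the floor, with 7 UMIs in EC1 and 1 in EC2.

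The venous, peritubular and lymphatic lists lay the other way, and the glomerular list was slightly above the median of all genes. The endothelial identity list, with a median of -0.32, lay the other way as well. The lower medians are therefore not particular to venous, peritubular or lymphatic genes. The venous and ascending vasa recta list had 13 members at the floor, 0 called higher and 1 lower, and a median of -0.28. The lower gene was Tll1, a metalloprotease, at 0.850 in EC1 and 1.83 in EC2 from 261 and 849 UMIs, a level 2.15-fold lower in EC1. Nr2f2, the transcription factor of venous identity, averaged 0.186 and 0.280, and Ephb4, the venous ephrin receptor, averaged 0.339 and 0.424; neither was called. The peritubular capillary list had 0 of 14 called in either direction and the lowest median of those 23, -0.35. Its members included Plvap, the diaphragm protein of fenestrae, at 0.564 and 0.782, and Igfbp3 at 0.160 and 0.254, whereas Igfbp5, of the same list, was close at 0.847 and 0.829. The glomerular capillary list had 3 of 14 called higher, Mapt, Ptprd and Tbx3, with a median of 0.20 and 9 of the 14 above 0. Of the 3, 2 were higher still in a non-endothelial cluster, Mapt and Ptprd. The list sum was 3.34 in EC1 and 2.69 in EC2 but 8.81 in PT-S1 and 8.52 in Podocyte, so the list was not particular to endothelium. Ehd3, a membrane-traffic protein used as the marker of glomerular endothelium, was on the lower side in EC1 at 0.166 and 0.271. Lymphatic genes were scarce: Lyve1 had 0 UMIs in both, and 0 of 4 members at the floor were called.

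**Figure D3:**
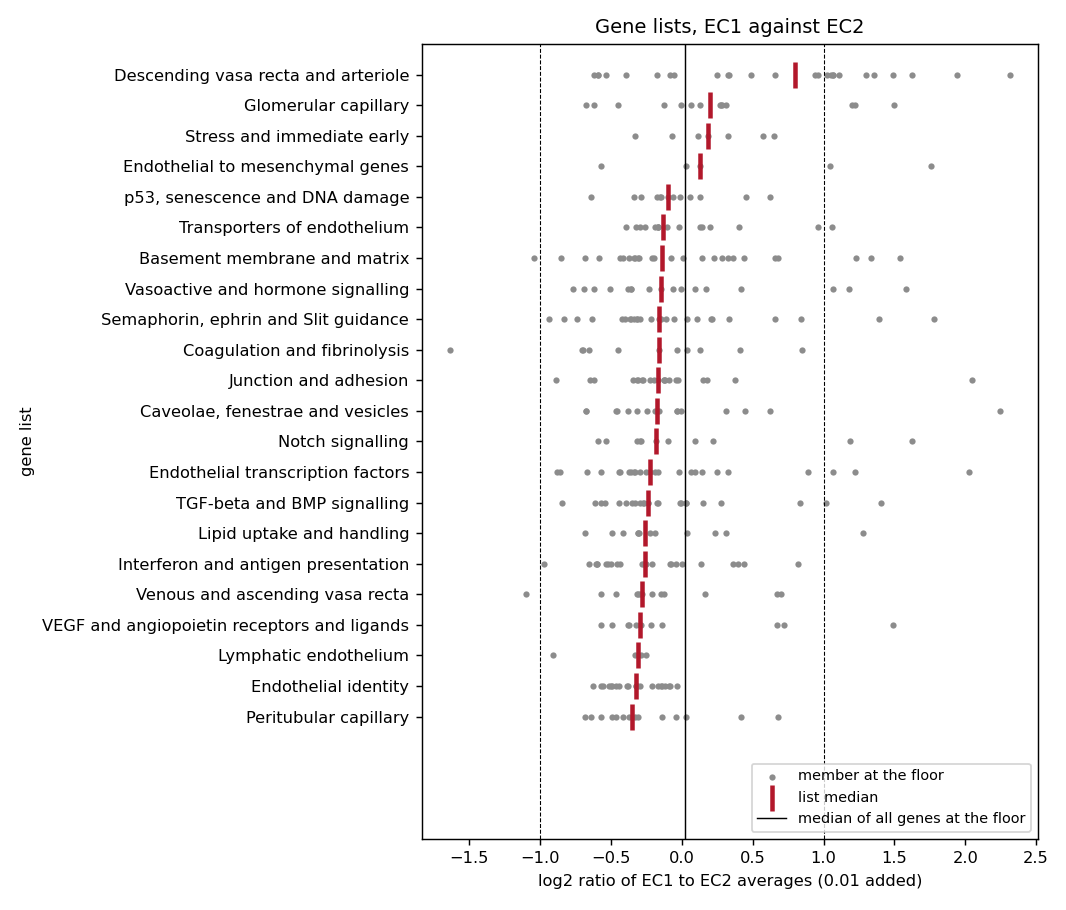
Each grey point is a gene at the floor and each red bar the median of its list; the x axis is the log2 ratio of EC1 to EC2 averages with 0.01 added, and pathway lists with at least 3 such genes are drawn, except 1 not reported here. The descending vasa recta and arteriole list sits highest, at a median of 0.80, and the endothelial identity (-0.32) and peritubular capillary (-0.35) lists sit lowest.

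Receptors for the vascular growth factors followed the identity genes. The counts of called genes in this and the following lists stand beside 5.92% called higher and 0.918% called lower over all genes at the floor. In the VEGF and angiopoietin list 12 genes reached the floor, Vegfc was called higher, 0 were lower, and the median was -0.29. Tek averaged 2.20 in EC1 and 3.27 in EC2, Nrp1, a VEGF co-receptor, 2.75 and 3.21, and Flt4, the receptor for VEGF-C, 0.241 and 0.297. Among endothelial transcription factors 3 of 25 were called higher and 0 lower, with a median of -0.22. Mecom, a zinc-finger factor linked to arterial endothelium and also abundant in distal tubule, averaged 3.44 in EC1 (1057 UMIs) and 0.836 in EC2 (388 UMIs), a ratio of 4.12 (3.66 to 4.64), and reached 13.5 in DCT+CNT. Tbx3 averaged 0.0684 and 0.0237 from 21 and 11 UMIs, and Sox17 was the third. Sox7, a relative of Sox17, pointed the other way, at 0.0489 and 0.0970. Fli1, an ETS factor, averaged 1.54 and 2.46, and Epas1, the hypoxia-responsive factor HIF-2 alpha, averaged 1.25 and 1.27.

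In Notch signalling 2 of 11 genes were called higher, Jag1 and Notch2, and the receptors of endothelium were close, with Notch1 at 0.293 and 0.274 and Notch4 at 0.202 and 0.254. The list median was -0.18 and its mean 0.07. In TGF-beta and BMP signalling 2 of 24 were higher, Bmpr1a, a type I BMP receptor (0.130 and 0.0431), and Bmp6, a ligand (0.371 and 0.179). The median was -0.24, and Eng, the endothelial co-receptor, averaged 1.34 and 1.64. The guidance list had Sema3c and Slit2 higher of 27 and a median of -0.16. The junction list had Cdh13, a membrane-anchored cadherin, higher of 21, at 0.218 and 0.0452, and a median of -0.17. All of these higher genes except Vegfc, Sox17 and Tbx3 were still higher in some non-endothelial cluster than in EC1. With 5.92% of all genes called higher, so few calls in a list are not read as a result about that list.

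Vessel tone genes were mostly close. In the vasoactive list 3 of 17 were called higher, Gucy1a1, a subunit of the nitric oxide receptor (0.0717 and 0.0172), Pde3a, a cyclic nucleotide phosphodiesterase (0.368 and 0.157), and Agtr1a, an angiotensin II receptor (0.0652 and 0.0259). All 3 were highest in Mixed-1, at 1.25, 4.73 and 1.05. Nos3, endothelial nitric oxide synthase, averaged 0.169 and 0.200, and Ednrb, the endothelin receptor of endothelium, 0.313 and 0.541. The median was -0.15 and the mean 0.02. In matrix genes 3 of 26 were higher, Col4a5, Lamb1 and Col18a1, where 5.92% of all genes were. All 3 were higher still in a non-endothelial cluster than in EC1. Nid1, a basement membrane linker, was lower at 0.111 and 0.239. The matrix median was -0.14 and its mean 0.04. Col4a1 and Col4a2, the chains made by capillary endothelium, averaged 0.521 and 0.557 in EC1 and 0.552 and 0.640 in EC2.

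The remaining functional lists had 1 call each, where 5.92% of all genes were called higher and 0.918% lower. In caveolae and fenestrae 1 of 16 was higher, Myof, a membrane repair protein, with a median of -0.18. In coagulation 1 of 11 was lower, Tfpi, the inhibitor of tissue factor, at 0.0195 and 0.0819 from 6 and 38 UMIs, with a median of -0.16. in lipid handling 1 of 12 was higher (Ppargc1a, a regulator of mitochondrial gene expression), and in transport 1 of 16 (Trpv4, a calcium channel). Their medians were -0.26 and -0.14, and the mean of the transport list was 0.05. Myof, Ppargc1a and Trpv4 were each higher still in a non-endothelial cluster than in EC1.

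Injury programmes were read against the shares of all genes called, 5.92% higher and 0.918% lower. Of 24 interferon and antigen presentation genes at the floor, 0 were called, with a median of -0.26. Ifi44, an interferon-induced gene, averaged 0.332 in EC1 and 0.474 in EC2 but at most 0.0332 elsewhere. Rsad2, the antiviral protein viperin, averaged 0.971 and 0.998 and at most 0.149 elsewhere, so both endothelial clusters held it well above the remaining 15. Of 13 genes of p53, senescence and DNA damage 0 were called, with a median of -0.10, and Cdkn1a, the cell cycle inhibitor p21, had 8 and 10 UMIs. Of 7 stress genes 0 were called, with a median of 0.19. In the endothelial to mesenchymal list Vim and Zeb2 were higher of 5 at the floor, Vim at 0.0749 and 0.0151 and Zeb2 at 0.590 and 0.280. Both were higher still in a non-endothelial cluster, Zeb2 at 7.68 in Mixed-1. The sum of that list was lower in EC1, at 3.25 against 3.93 in EC2. Of 17 cycling genes 1 reached the floor, and it was not called. Since the column carries no treatment, these levels cannot be divided between untreated and cisplatin-treated mice.

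The 64 genes lower in EC1 peaked in endothelium more often than the 413 higher ones. For 34 of the 64 (53.1%) EC2 was the highest of the 17 clusters, against 26 of the 413 higher genes (6.30%) that were highest in EC1. For the other 30 (46.9%) a non-endothelial cluster was above both EC1 and EC2, as it was for 78.9% of all 6972 genes at the floor. Named after their values were seen, Edil3, an integrin ligand of vessels, averaged 0.277 in EC1 and 0.661 in EC2 (85 and 307 UMIs), Tmem200a 0.0521 and 0.147, and Car8, a carbonic anhydrase-related protein, 0.336 and 0.707. Nlgn1, an adhesion protein, averaged 0.769 and 1.76 from 236 and 819 UMIs. Among the 15 largest differences most rested on few UMIs. Lrfn2, an adhesion protein of synapses, had 2 UMIs in EC1 and 34 in EC2, Col23a1 had 2 and 25, and Kirrel3 had 12 and 64. Gm32401 and 9630013A20Rik are annotated opposite Nedd9 and Pcdh17. Pcdh17 averaged 0.964 and 1.68, so its antisense partner pointed the same way, and reads of such pairs may not be separable.

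The 15 largest differences in the higher direction were Fstl4, Dcdc2a, Cdk14, Lgr5, Grip1, Gsdmc2, Csmd1, Sgcz, Ptprj, Frmpd4, Myo3b, Nckap5, Col4a6, Pappa and Prdm16. Apart from Fstl4, Lgr5 and Gsdmc2, each was higher in a non-endothelial cluster than in EC1. Frmpd4 averaged 0.0977 in EC1, 0.00646 in EC2 and 8.38 in PC, the principal cells. Grip1 averaged 0.309, 0.0302 and 2.72 in PC. Sgcz averaged 0.150, 0.0129 and 2.29 in TAL, the thick ascending limb. Ptprj, a receptor-type phosphatase, averaged 0.544 in EC1 (167 UMIs), 0.0733 in EC2 (34 UMIs) and 2.87 in Immune cells. Prdm16, a relative of Mecom, averaged 0.362, 0.0560 and 2.16 in PC.

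This held for most of the 413. A non-endothelial cluster exceeded both EC1 and EC2 for 387 of them (93.7%), against 5498 of the 6972 genes at the floor (78.9%). It did so by at least 10-fold for 149 (36.1%), against 320 (4.59%). Grouped by the non-endothelial cluster with the highest average, the share called higher in EC1 was 13.3% for TAL (50 of 377 genes), 11.6% for DCT+CNT (23 of 199) and 10.1% for PT-S2/S3 (20 of 199). For PT-S1 it was 40 of 307 genes and for PC 58 of 529. It was 2.95% for Mixed-1 and 1.32% for Immune cells, where 21 and 15 genes were called lower, and 2.92% for the tubule cluster PT-S3-1 (10 of 343), where 0 were.

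**Figure D4:**
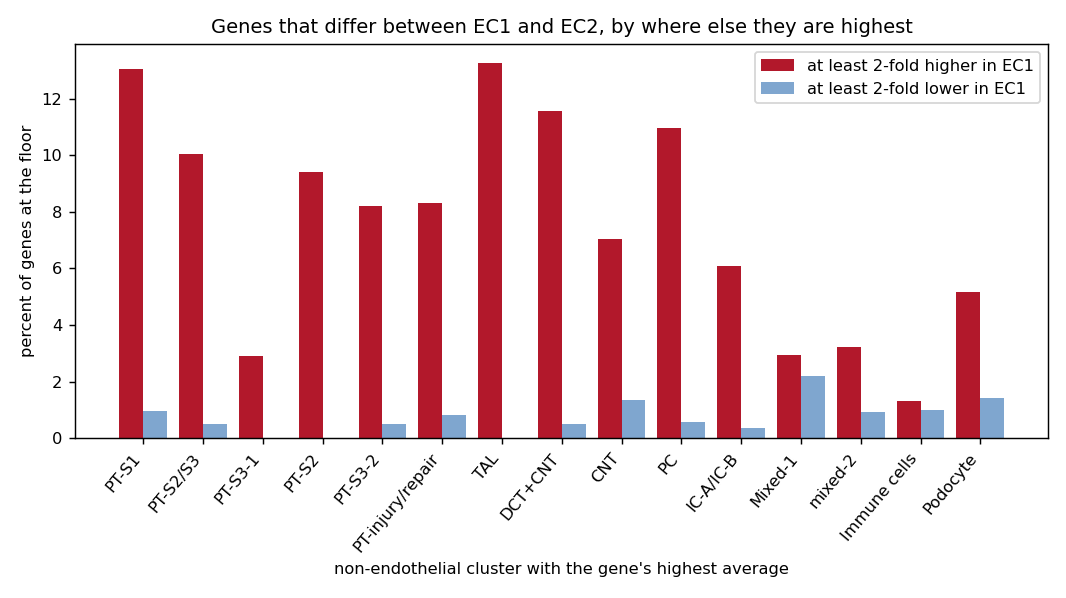
Genes at the floor are grouped on the x axis by the non-endothelial cluster in which they are highest; bars give the percent of each group called at least 2-fold higher (red) or lower (blue) in EC1 than in EC2. Red bars exceed 10% for PT-S1, PT-S2/S3, TAL, DCT+CNT and PC, and are lowest for Immune cells, at 1.32%.

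Tubule markers were present at low levels in EC1 and exceeded those in EC2. The summed proximal tubule list was 7.94 in EC1 and 5.49 in EC2, the former 15.8% of its level in PT-S1, and 5 of 15 genes were called higher, with a median of 0.78. The thick ascending limb list was 3.62 and 1.66, or 5.49% and 2.51% of TAL, with 5 of 7 called. The distal convoluted tubule list was 2.34 and 1.25, or 4.50% and 2.40% of DCT+CNT, with 3 of 5 called. Other non-tubule clusters held these markers too. The proximal tubule list summed to 11.8 in Podocyte, 10.5 in Immune cells and 4.30 in Mixed-1. In the same clusters the thick ascending limb list summed to 3.57, 2.31 and 2.01, and the distal convoluted tubule list to 2.52, 3.19 and 1.48. Such tubule levels are therefore not particular to EC1. Slc12a3, the thiazide-sensitive cotransporter, averaged 0.935 in EC1, 0.220 in EC2 and 33.7 in DCT+CNT. Slc12a1, the loop-diuretic-sensitive cotransporter, averaged 2.07 and 0.957, with 41.1 in TAL. Injured proximal tubule genes summed to 1.02 and 0.442, or 16.5% and 7.16% of PT-injury/repair, and connecting tubule and principal cell genes to 1.54 and 0.646, or 2.08% and 0.871% of CNT. Podocyte markers summed to 4.47 and 3.18, or 3.06% and 2.18%, and Nphs1, nephrin, had 17 and 3 UMIs. In EC1, 0 of 15 proximal tubule, 0 of 8 thick ascending limb and 1 of 6 distal convoluted tubule markers were at 0 UMIs. In EC2 the number was 0 for each of these lists.

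Markers of the other cell types differed in either direction. Fibroblast, mesangial and pericyte genes summed to 6.41 in EC1 and 7.25 in EC2, mostly Ebf1, a transcription factor abundant in both (5.19 and 5.84). Smooth muscle genes summed to 0.303 and 0.375, macrophage and dendritic genes to 0.169 and 0.123, lymphocyte genes to 0.0652 and 0.108, and red cell genes to 0.251 and 0.284. In the macrophage list 5 of 13 genes had 0 UMIs in EC1. Smooth muscle actin, Acta2, had 3 UMIs in EC1 and 0 in EC2. Mgp and Fbln5, which peak in Mixed-1, were called higher in EC1, and both lists of mural and interstitial cells had a lower sum there.

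Several genes that track RNA quality were also higher in EC1. The 8 mitochondrially encoded genes summed to 4.28 in EC1, the third highest of 17 clusters, and 2.15 in EC2, the eighth; all 8 were above 0 on the log2 scale, 2 were called, and the median was 0.95. Gm42418, a noncoding gene over a ribosomal RNA locus, averaged 38.2 and 19.1, and Cmss1 averaged 3.31 and 1.65 and was highest in EC1 of all clusters. Kap, an abundant proximal tubule transcript, was close at 2.72 and 2.60, as was Malat1 at 126 and 109. The part of tubule RNA and of these quality genes in the 413 higher calls was not tested.

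**Figure D5:**
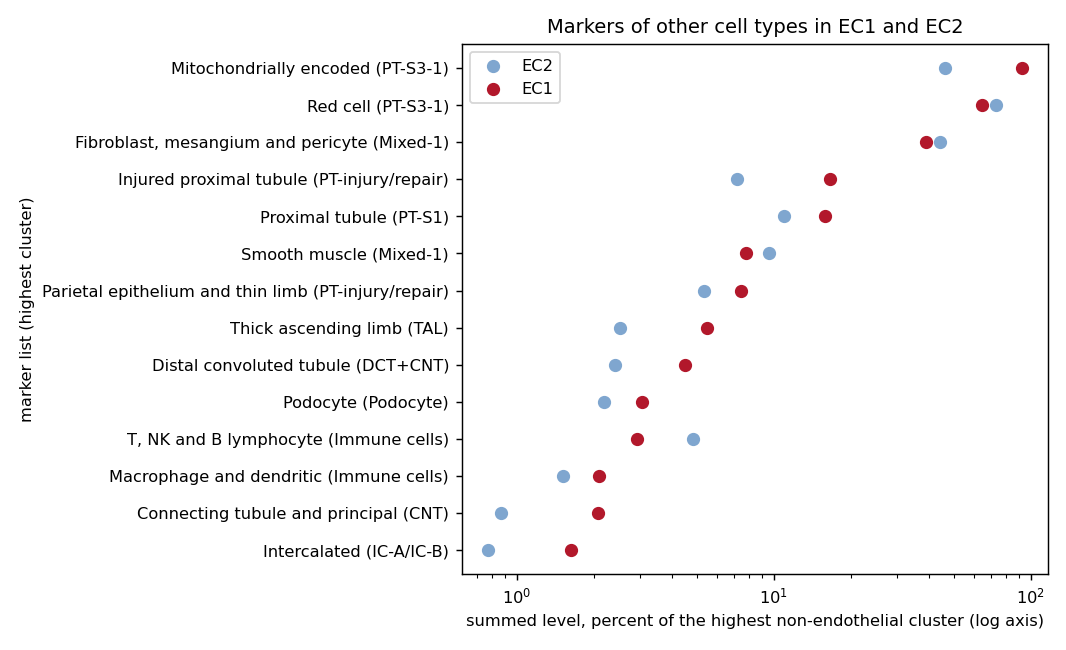
Points give the summed level of each marker list in EC1 (red) and EC2 (blue) as a percent of its level in the non-endothelial cluster where it is highest, named in brackets (log axis). EC1 lies to the right of EC2 for all tubule lists, podocyte, macrophage and mitochondrially encoded genes, and to the left for fibroblast, smooth muscle, lymphocyte and red cell lists.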

How the data were processed

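Nuclear RNA was measured in 4 kidney samples by droplet single-nucleus 3' sequencing, per the labels. The submitters' processing notes list Cell Ranger 5.0.1 and mm10. The sources used here do not give the clustering, the filters, the doublet treatment or the use of strand. The deposited values are averages over the nuclei of a cluster, in normalised UMIs per nucleus, as made by the authors. The authors' fold changes and p-values were not used.

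All values were whole multiples of 1 step per column (100% within 0.1 UMI), from which UMI sums were recovered with Python 3.11.15 (numpy 2.4.6, pandas 2.3.3, scipy 1.17.1), and the scripts were tested on simulated data. The pseudocount was 0.01, the floor 0.05 and the fold 2. Ratios have 95% Clopper-Pearson intervals, and 0 UMIs were set at 3 over the cluster. Intervals cover counting error only, and no test over samples was possible. Of the gene IDs, 24449 of 24468 matched GENCODE M21 (GRCm38, the assembly of mm10).

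The cluster and the 38 gene lists (24 of pathways, 14 of markers) were chosen with earlier results of these data known. Named genes were the 4 cluster markers, the 15 highest and 15 lowest ratios to EC2 among called genes, the 20 furthest above the non-endothelial clusters, the 10 highest averages, up to 5 members per list by level and 4 by difference, and defining markers of other cell types. Among the highest by average were Malat1, Gm42418, Meis2, Ptprg, Zbtb20, Ptprm, Ldb2, Plpp1 and Ebf1. Parietal epithelium and thin limb markers summed to 0.371 in EC1 and 0.267 in EC2, and intercalated cell markers to 0.290 and 0.138. Alternatives covered the pseudocount, the floor, the fold, the centring, the comparison group and the list summary. Some genes and 1 list are not reported here.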

Additional observations from a re-analysis of the deposited data

How the results depend on the processing

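The counts of called genes depended on the settings, and no named called gene changed sign. Genes higher in EC1 than in EC2 numbered 413. They were 161 with a pseudocount of 0.05, 718 with a floor of 0.02, 226 with a floor of 0.1, 900 with no floor and 44 at a fold of 4. With a pseudocount of 0.001 they were 516, and centred on the median ratio 393. Genes lower numbered 64, and under those settings 7, 173, 23, 281 and 1, and 125 with a pseudocount of 0.001. Centring on the endothelial identity median, chosen after seeing the data, gave 834 higher and 21 lower. Genes led over the 15 non-endothelial clusters numbered 249, but 93 at a fold of 4 and 1238 against the pool of the other 16 clusters. Of 249 values for 83 named called genes under 3 settings, 211 stayed past the threshold and 38 did not. Of 158 list values, 9 moved. With a floor of 0.02 the fibroblast list median turned from -0.33 to 0.06, coagulation from -0.16 to 0.04 and transport from -0.14 to 0.09. The means of the Notch, vasoactive, matrix and transport lists had the opposite sign to their medians. EC2 was the nearest profile under each setting, with r from 0.939 to 0.960. Depth limits single genes, since the floor is 15.3 UMIs in EC1. No paired analysis was possible because the columns carry no sample or replicate number.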
